A study of Mus musculus with 12 samples.

Results

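The genes described here are 10 genes of the intestinal crypt, chosen by symbol: the stem cell markers Lgr5, Ascl2, Olfm4, Smoc2, Tnfrsf19 and Prom1, and the Wnt targets and feedback regulators Axin2, Rnf43, Znrf3 and Sox9. Each of the 10 had a row among the 23329 gene rows of the count tables. They were measured by RNA sequencing of whole duodenum and whole spleen from wild type C57BL/6J mice aged 2 months. The groups were duodenum of mice given AC H6, duodenum of mice given isotype antibody, spleen of mice given AC H6 and spleen of mice given isotype antibody, with 3 libraries in each. AC H6 is an antibody that activates the lymphotoxin beta receptor (LTbR), a member of the tumour necrosis factor receptor family, and the isotype antibody is its control. Each mouse received 100 ul of a 1 mg/ml solution, and tissue was collected after 24 hours. Each library holds RNA of all cell types of the organ, so that fewer cells of a type and less RNA per cell cannot be told apart. The design gives 3 mice per group, but the labels do not tie each library to a separate mouse, so the p-values measure the spread between these libraries.

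The lining of the small intestine is renewed by stem cells at the base of the crypts, the pits between the villi. Wnt proteins bind Frizzled receptors on these cells, which stabilises beta-catenin and lets it act with TCF transcription factors on target genes. R-spondins amplify this signal: bound to Lgr receptors, they remove Rnf43 and Znrf3, membrane ubiquitin ligases that otherwise clear Frizzled from the cell surface. Rnf43, Znrf3 and Axin2 are themselves Wnt targets, and so form negative feedback.

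Total counts per library ran from 13874091 to 45847467. As a check of the labels, the summed CPM (read counts scaled to library sizes of the same total) of 8 epithelial markers was 5720 to 6217 in duodenum AC H6 libraries and 6696 to 7239 in duodenum isotype libraries, against 16.4 to 17.7 in spleen AC H6 libraries and 13.8 to 16.6 in spleen isotype libraries. Some duodenum libraries stood apart in RNA that is not from the crypt. Transcripts of pancreatic acinar cells, the enzyme-making cells of the gland beside the duodenum, held 9.26% of the counts of AC H6 3, 0.807% of AC H6 2 and 2.31% of isotype 2, and at most 0.0319% of the other duodenum libraries. The ribosomal precursor Rn45s held 1.18% of AC H6 2 and 7.56% of isotype 1, and at most 0.206% of the others. Values of the 10 genes that moved without these libraries are given beside the result.

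RefSeq promoter sequences (GRCm38.p6) were matched for 6 of the 10 genes, with 9 transcription starts between them. The 250 bases before each start were searched on both strands for the TCF core, CTTTG followed by AA, AT, TA or TT, and for the kappa B consensus, the binding motif of the NF-kB factors through which LTbR signals. The windows of Ascl2, the gene with the largest response, of Rnf43, which fell, and of Axin2, a classical Wnt target, are shown with that of Tnfrsf19. All are 5′ to 3′ on the strand of the gene, and capitals mark a motif match.
Ascl2, chr7:142969265-142969514, minus strand: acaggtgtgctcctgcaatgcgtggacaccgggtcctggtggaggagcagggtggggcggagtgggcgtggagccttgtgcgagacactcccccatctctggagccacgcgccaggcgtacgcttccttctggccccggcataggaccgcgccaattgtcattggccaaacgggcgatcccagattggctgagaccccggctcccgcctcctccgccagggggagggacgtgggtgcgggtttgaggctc
Rnf43 (the second start), chr11:87699647-87699896, plus strand: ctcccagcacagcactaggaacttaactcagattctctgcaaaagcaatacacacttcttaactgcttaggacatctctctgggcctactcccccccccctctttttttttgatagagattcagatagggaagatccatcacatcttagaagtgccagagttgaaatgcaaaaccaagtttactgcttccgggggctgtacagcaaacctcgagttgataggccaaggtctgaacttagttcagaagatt
Axin2, chr11:108920099-108920348, plus strand: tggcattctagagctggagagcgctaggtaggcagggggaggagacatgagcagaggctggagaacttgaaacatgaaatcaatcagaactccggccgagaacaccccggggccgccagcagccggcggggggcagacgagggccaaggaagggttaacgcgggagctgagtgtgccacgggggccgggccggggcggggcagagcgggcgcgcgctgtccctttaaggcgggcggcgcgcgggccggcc
Tnfrsf19 (the second start), chr14:61037988-61038237, minus strand: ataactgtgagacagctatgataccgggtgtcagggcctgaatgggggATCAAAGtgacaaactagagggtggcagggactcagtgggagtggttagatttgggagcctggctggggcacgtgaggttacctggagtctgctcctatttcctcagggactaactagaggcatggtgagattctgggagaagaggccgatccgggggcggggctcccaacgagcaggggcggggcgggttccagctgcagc
The Tnfrsf19 window holds the reverse complement of a TCF core, ATCAAAG, 202 bases before the start, and overlaps an exon of the noncoding gene Gm41168. It was the only match to the TCF core in the 9 windows, and 14.8% of 32851 mouse windows of the same length held one. The kappa B consensus had matches in the Olfm4 window alone, a pair that overlap, the farther one beginning 52 bases before the RefSeq start, and 3.9% of all windows held one. They lie within this stretch of 30 bases.
Olfm4, chr14:80000241-80000270, plus strand: ctggccatgGGGAAATCCCCactgggagct
In GENCODE M21 a first exon of Olfm4 begins at base 80000251, inside the match. A match describes these letters only.

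In duodenum, 6 of the 10 genes were higher after AC H6, 1 was lower and 3 did not pass the test. Ascl2 had the largest change, 2.48-fold, and Olfm4, Tnfrsf19, Smoc2, Sox9 and Lgr5 lay between 1.64-fold and 1.32-fold above isotype. Rnf43 was the gene that fell. A gene was called at a Benjamini-Hochberg adjusted p under 0.05 in edgeR's quasi-likelihood test, adjusted over all 15667 genes tested in duodenum. Of these genes, 34.6% were called, 18.5% as higher and 16.1% as lower, so calls were common in this tissue. The AC H6 and isotype values did not overlap for 8 of the 10 genes, against 49.6% of all genes tested. The median log2 fold change was 0.40 over the 10 genes and 0.01 over all genes tested. The stem cell markers and the Wnt feedback genes differed in their counts: 5 of 6 markers were called, all as higher, with a median log2 fold change of 0.62, while of the 4 feedback and target genes 1 was higher, 1 was lower and 2 were not called, with a median of 0.10.

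**Figure D1:**
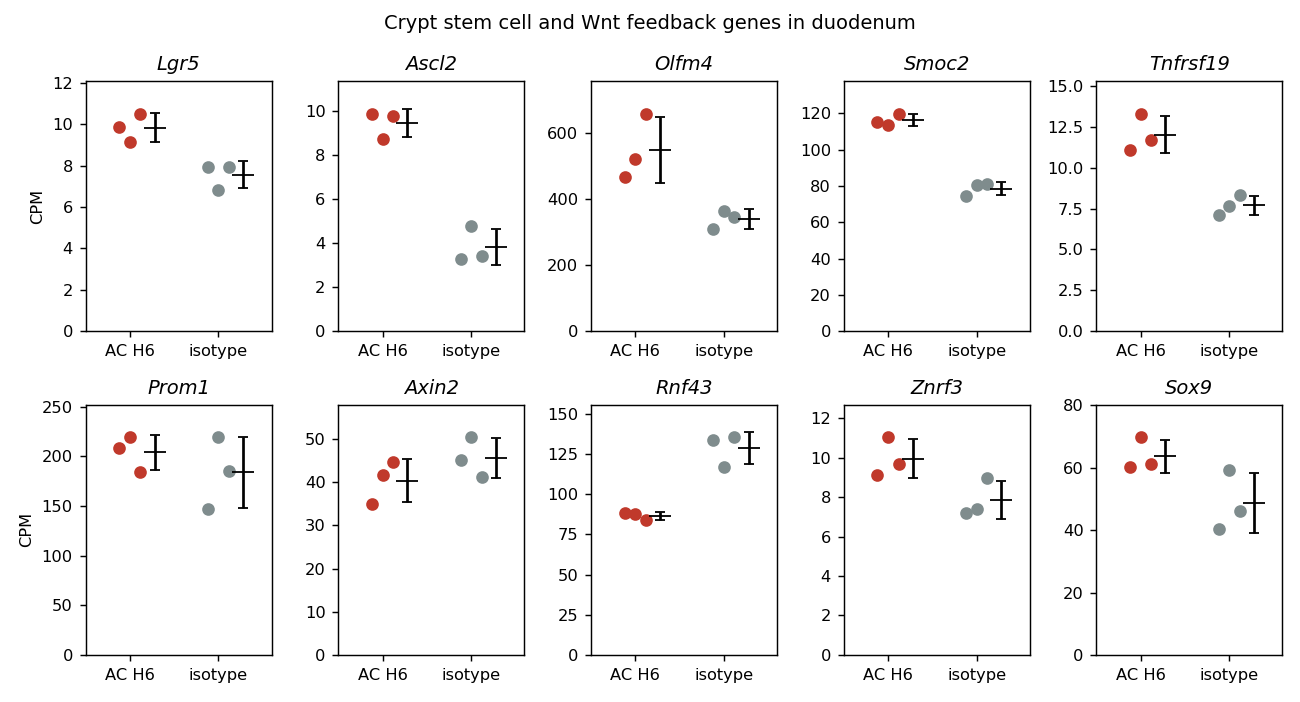
CPM of each of the 10 genes in the 6 duodenum libraries, with AC H6 on the left of each panel and isotype on the right. Points are libraries and bars are means ± SD (n = 3), on axes that start at 0. Prom1 and Axin2 are the genes whose groups overlap, and Rnf43 is the gene that lies wholly below isotype.

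Ascl2 encodes a basic helix-loop-helix transcription factor that maintains the crypt stem cell state (chromosome 7, 142966829 to 142969264, minus strand, GRCm38). It had 9.90, 8.75 and 9.77 CPM in AC H6 libraries 1, 2 and 3, against 3.30, 4.80 and 3.42 CPM in isotype libraries 1, 2 and 3. Every AC H6 library lay above every isotype library, by a gap wider than the spread within either group. Its log2 fold change was 1.31 ± 0.14 (standard error, SE), with an edgeR adjusted p of 4.12e-04. Of the 2899 genes called as higher in duodenum, 9.24% had a larger log2 fold change than Ascl2. The call held with each library left out in turn, where the log2 fold change ran from 1.23 to 1.51.

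Lgr5, the R-spondin receptor whose expression defines the crypt base stem cell, changed much less than Ascl2 (chromosome 10, 115450311 to 115587780, minus strand). It had 9.87, 9.11 and 10.5 CPM in AC H6 libraries, against 7.92, 6.81 and 7.93 CPM in isotype libraries. The groups did not overlap. On the log2 scale the fold change was 0.40 ± 0.11 (SE), with an edgeR adjusted p of 0.0190. The call did not hold throughout: the adjusted p was 0.0563 without isotype 2 and 0.0509 without AC H6 1. Without both libraries richest in acinar RNA, AC H6 3 and isotype 2, the log2 fold change was 0.27 with an adjusted p of 0.108, an alternative chosen after seeing the data.

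The other stem cell markers that rose were secreted or membrane proteins. Olfm4, a secreted glycoprotein made at high level by crypt stem cells (chromosome 14, 79984081 to 80023139, plus strand), had 465, 523 and 659 CPM in AC H6 libraries, against 308, 365 and 346 CPM in isotype libraries. The groups did not overlap, and AC H6 3, which was also the library with most acinar RNA, was the highest. Its log2 fold change was 0.71 ± 0.12 (SE; edgeR adjusted p = 0.00319), and it ran from 0.56 to 0.82 when each library was left out in turn. Smoc2, a secreted calcium-binding matrix protein (chromosome 17, 14279506 to 14404790, plus strand), had 115, 114 and 120 CPM in AC H6 libraries, against 74.4, 80.3 and 81.0 CPM in isotype libraries. The groups were far apart relative to the spread within each, and the log2 fold change was 0.58 ± 0.06 (SE; edgeR adjusted p = 2.94e-04). Tnfrsf19, also called Troy, is a tumour necrosis factor receptor family member of Lgr5 cells whose second start is shown above (chromosome 14, 60963875 to 61046490, minus strand). It had 11.1, 13.3 and 11.7 CPM in AC H6 libraries, against 7.11, 7.65 and 8.32 CPM in isotype libraries. The groups did not overlap, and the log2 fold change was 0.66 ± 0.11 (SE; edgeR adjusted p = 0.00245). The calls of Olfm4, Smoc2 and Tnfrsf19 held with each duodenum library left out in turn.

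Prom1, the membrane glycoprotein CD133 of stem cells and their dividing daughters (chromosome 5, 43993620 to 44102032, minus strand), was the stem cell marker that did not pass the test. It had 209, 219 and 184 CPM in AC H6 libraries, against 147, 219 and 185 CPM in isotype libraries. The groups overlapped, and isotype 1 alone was low. Its log2 fold change was 0.17 ± 0.13 (SE; edgeR adjusted p = 0.347), with an interval of 2 SE from -0.09 to 0.43. The value turned on which libraries were used: it was 0.38 (adjusted p = 0.0369) without AC H6 3 and isotype 2, and -0.020 without AC H6 2 and isotype 1, both chosen after seeing the data.

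Among the feedback genes, Rnf43 and Znrf3 lay on opposite sides of isotype. Rnf43 (chromosome 11, 87662722 to 87735539, plus strand) had 88.1, 87.7 and 83.9 CPM in AC H6 libraries, against 134, 117 and 135 CPM in isotype libraries. All 3 AC H6 libraries lay below all 3 isotype libraries. With a log2 fold change of -0.55 ± 0.08 (SE; edgeR adjusted p = 0.00124), its level was 0.681 times that of isotype, and the call held with each duodenum library left out in turn. Of the 2529 genes called as lower in duodenum, 15.7% had a larger fall. Znrf3, the paralog of Rnf43 with the same role (chromosome 11, 5276324 to 5444847, minus strand), had 9.118, 11.03 and 9.691 CPM in AC H6 libraries, against 7.21, 7.41 and 8.95 CPM in isotype libraries. Its groups did not overlap either, but the highest isotype library came close to the lowest AC H6 library. The log2 fold change was 0.35 ± 0.12 (SE; edgeR adjusted p = 0.0525), just outside the threshold. Znrf3 passed in limma-voom (adjusted p = 0.0487), and in edgeR with no filter on low counts (0.0450) and without isotype 3 (0.0299). It also passed without the most abundant blood, ribosomal and acinar genes (0.0458). It did not pass by DESeq2 (0.0545), or in edgeR with the replicate number as a block (0.0615) or a score of acinar RNA (0.0643). Nor did it pass without any other single library (0.0569 to 0.164). Without both libraries richest in Rn45s, AC H6 2 and isotype 1, the log2 fold change was 0.22 with an adjusted p of 0.305. Per kb of exon, the ratio of Rnf43 to Znrf3 was 11.6, 9.57 and 10.4 in AC H6 libraries, against 22.3, 19.0 and 18.2 in isotype libraries.

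Axin2, a scaffold of the complex that degrades beta-catenin and the most used readout of Wnt signalling (chromosome 11, 108920349 to 108950783, plus strand), did not pass the test in duodenum. It had 34.9, 41.6 and 44.6 CPM in AC H6 libraries, against 45.1, 50.4 and 41.2 CPM in isotype libraries. The groups overlapped. The log2 fold change was -0.16 ± 0.10 (SE; edgeR adjusted p = 0.249), with an interval of 2 SE from -0.36 to 0.04. With a score of acinar RNA in the fit it was -0.22 with an adjusted p of 0.0449. It was -0.058 without AC H6 1 (adjusted p = 0.636) and -0.083 without isotype 2 (0.577). Sox9, a transcription factor of the crypt that is needed for Paneth cells (chromosome 11, 112782224 to 112787760, plus strand), had 60.1, 69.7 and 61.1 CPM in AC H6 libraries, against 40.4, 59.3 and 46.2 CPM in isotype libraries. Its groups were separated by less than the spread within either group. The log2 fold change was 0.40 ± 0.12 (SE; edgeR adjusted p = 0.0341), and this call was the least stable of the 7 when single libraries were left out. The adjusted p was 0.0797 without isotype 1, 0.101 without isotype 3, 0.0557 without AC H6 1, 0.115 without AC H6 2 and 0.0624 without AC H6 3. The call held without isotype 2, at 0.57 (adjusted p = 0.00272), by DESeq2 (0.00283) and with the replicate number as a block (0.00514). Without both libraries richest in Rn45s, AC H6 2 and isotype 1, the log2 fold change of Sox9 was 0.22 with an adjusted p of 0.203. Without both richest in acinar RNA, AC H6 3 and isotype 2, it was 0.60 with an adjusted p of 0.00527. These last alternatives were chosen after seeing the data.

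Levels of different genes were compared as CPM per kb of exon, means of 3 libraries. The length was the union of all annotated exons, 10264 bases for Lgr5 and 1623 for Ascl2, so the order depends on this choice. In CPM without it, Lgr5 averaged 9.83 after AC H6, against 9.47 for Ascl2 and 9.95 for Znrf3. Olfm4 was the highest of the 10 genes in duodenum, at 185 in AC H6 and 115 in isotype, and Lgr5 was the lowest, at 0.958 in AC H6 and 0.736 in isotype. After AC H6 the order from high to low was Olfm4, Prom1 (28.4), Smoc2 (16.7), Sox9 (15.4), Rnf43 (13.2), Axin2 (7.33), Ascl2 (5.84), Tnfrsf19 (2.54), Znrf3 (1.26) and Lgr5. Neighbours in that order did not overlap in their libraries, except Smoc2 and Sox9. Under isotype the order was Olfm4, Prom1 (25.6), Rnf43 (19.6), Sox9 (11.8), Smoc2 (11.3), Axin2 (8.28), Ascl2 (2.37), Tnfrsf19 (1.62), Znrf3 (0.995) and Lgr5. Here Prom1 overlapped Rnf43, and Sox9 overlapped Smoc2. The mean of Rnf43 was below those of Smoc2 and Sox9 after AC H6 and above both under isotype. The exons of Olfm4, Prom1 and Axin2 share 5.17%, 5.91% and 3.80% of their bases with the unlisted genes Gm6999, Gm16401 and Gm11670, so a small part of their reads could come from these.

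**Figure D2:**
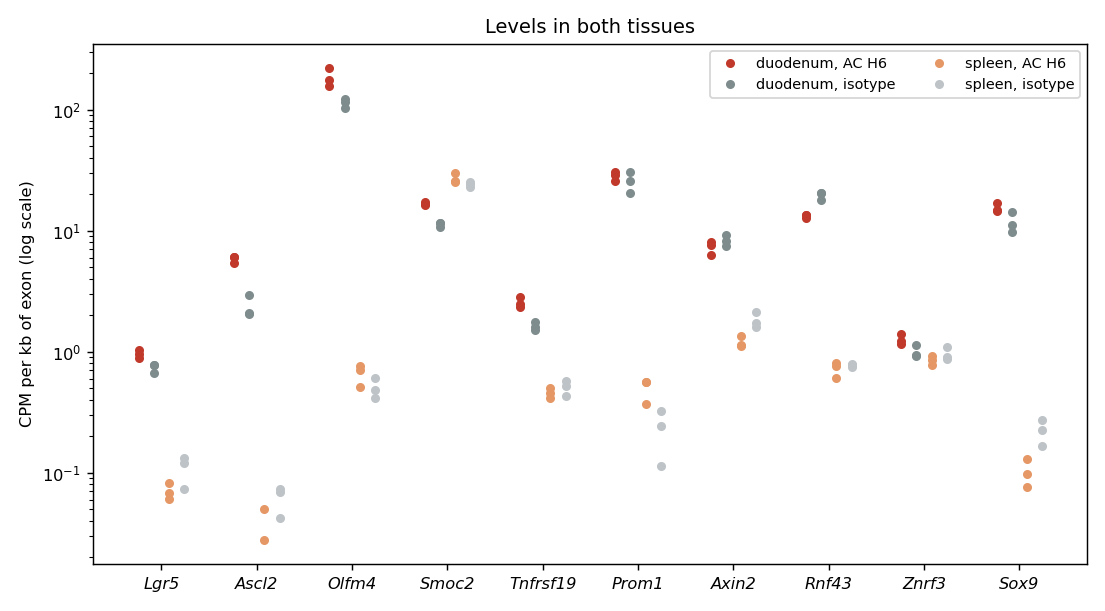
CPM per kb of exon for the 10 genes, on a log axis, with duodenum AC H6, duodenum isotype, spleen AC H6 and spleen isotype from left to right within each gene. Points are libraries. Smoc2 is higher in spleen than in duodenum, Znrf3 overlaps between the tissues under isotype, and the other genes are higher in duodenum. Ascl2 in spleen AC H6 3 has 0 reads and cannot be drawn on a log axis.

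Spleen served as background, since it holds no crypts. Between the isotype groups, 8 of the 10 genes were higher in duodenum than in spleen, 1 was lower and 1 was not called, in a comparison where 86.0% of 16029 genes were called, 42.2% as higher in duodenum and 43.8% as lower. The groups did not overlap for 9 of the 10 genes, against 87.5% of all genes tested. Log2 fold changes of duodenum over spleen were 7.85 ± 0.13 for Olfm4, 6.84 ± 0.29 for Prom1, 5.74 ± 0.21 for Sox9, 5.17 ± 0.30 for Ascl2 and 4.66 ± 0.08 for Rnf43 (SE). They were smaller for Lgr5 (2.75 ± 0.20), Axin2 (2.16 ± 0.12) and Tnfrsf19 (1.65 ± 0.14), and edgeR's largest adjusted p among these 8 genes was 6.92e-06. Smoc2 ran the other way: it had 74.4, 80.3 and 81.0 CPM in duodenum isotype libraries, against 167, 177 and 161 CPM in spleen isotype libraries, a log2 fold change of -1.12 ± 0.05 (edgeR adjusted p = 2.10e-07). Znrf3 had 7.21, 7.41 and 8.95 CPM in duodenum isotype libraries, against 6.89, 7.13 and 8.62 CPM in spleen isotype libraries, and the log2 fold change of 0.03 had an interval of 2 SE from -0.23 to 0.29.

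In spleen, none of the 9 genes tested was called after AC H6 by edgeR, in a comparison where 3.98% of 15270 genes were called, 2.06% as higher and 1.92% as lower. The count was 3 at an unadjusted p under 0.05, 2 by DESeq2 (Prom1 and Axin2) and 0 by limma-voom, and 4 of the 9 did not overlap between the groups, against 32.7% of all genes tested. Ascl2 had 2, 4 and 0 reads in AC H6 libraries, against 2, 5 and 2 reads in isotype libraries, too few to test. Axin2 came nearest to a call: it had 6.24, 7.47 and 6.13 CPM in AC H6 libraries, against 8.82, 9.54 and 11.7 CPM in isotype libraries. All AC H6 libraries lay below all isotype libraries, and the log2 fold change was -0.60 ± 0.13 (SE; edgeR adjusted p = 0.0526, and 0.0430 without AC H6 2). Sox9 had 0.314, 0.405 and 0.532 CPM in AC H6 libraries, against 1.13, 0.927 and 0.681 CPM in isotype libraries, which rests on 13 to 20 reads and 20 to 39 reads per library. Its groups did not overlap, and the log2 fold change was -1.14 ± 0.28 (SE; edgeR adjusted p = 0.0651). Prom1 had 4.02, 2.65 and 4.05 CPM in AC H6 libraries, against 2.32, 1.76 and 0.818 CPM in isotype libraries. Here too the groups did not overlap, with a log2 fold change of 1.16 ± 0.34 (SE; edgeR adjusted p = 0.0920). The share of haemoglobin transcripts, a sign of red cell RNA, was 24.3%, 13.4% and 19.2% in AC H6 spleens and 10.4%, 16.3% and 6.58% in isotype spleens, and its part in these values was not tested. Neutrophil markers moved in spleen too: edgeR called 10 of 10 as higher, with sums of 1631 to 2362 CPM in AC H6 libraries and 518 to 819 CPM in isotype libraries. That count was 2 without AC H6 1, AC H6 3 or isotype 1, 3 without isotype 2 and 0 with the replicate number as a block. Their part in the values of the 10 genes was likewise not tested.

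The response in duodenum was then set against the response in spleen by the interaction of tissue and treatment, which tests the difference between the 2 responses themselves. Of the 10 genes, 6 were called, 5 with a higher response in duodenum and 1 with a lower one, where 20.0% of 16655 genes were called, 10.9% as higher and 9.13% as lower. The log2 difference was 2.24 ± 0.67 for Ascl2, 1.53 ± 0.33 for Sox9, 0.97 ± 0.27 for Lgr5, 0.78 ± 0.18 for Tnfrsf19, 0.40 ± 0.10 for Smoc2 and -0.52 ± 0.13 for Rnf43 (SE). For Lgr5 and Sox9 the difference combined a rise in duodenum with a negative value in spleen that did not itself pass the test. Ascl2, with too few spleen reads to test there, rose by 1.31 in duodenum. In edgeR with no filter on low counts its spleen value was -0.97 ± 0.77 (SE; adjusted p = 0.501). Its difference of 2.24 thus holds a spleen part that rests on few reads. Olfm4 had log2 fold changes of 0.71 in duodenum and 0.41 in spleen, and the difference of 0.28 was not called (edgeR adjusted p = 0.465, interval of 2 SE from -0.22 to 0.77). The difference was not called for Znrf3 (0.51, adjusted p = 0.0619), Prom1 (-1.01, adjusted p = 0.0694) and Axin2 (0.42, adjusted p = 0.117). The calls of Smoc2, Tnfrsf19 and Sox9 held when each of the 12 libraries was left out in turn, and those of Ascl2, Lgr5 and Rnf43 did not, with the libraries named in the closing section. With the replicate number as a block, Ascl2 was not called (2.26, adjusted p = 0.0506) and Znrf3 was (0.50, adjusted p = 0.0470).

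**Figure D3:**
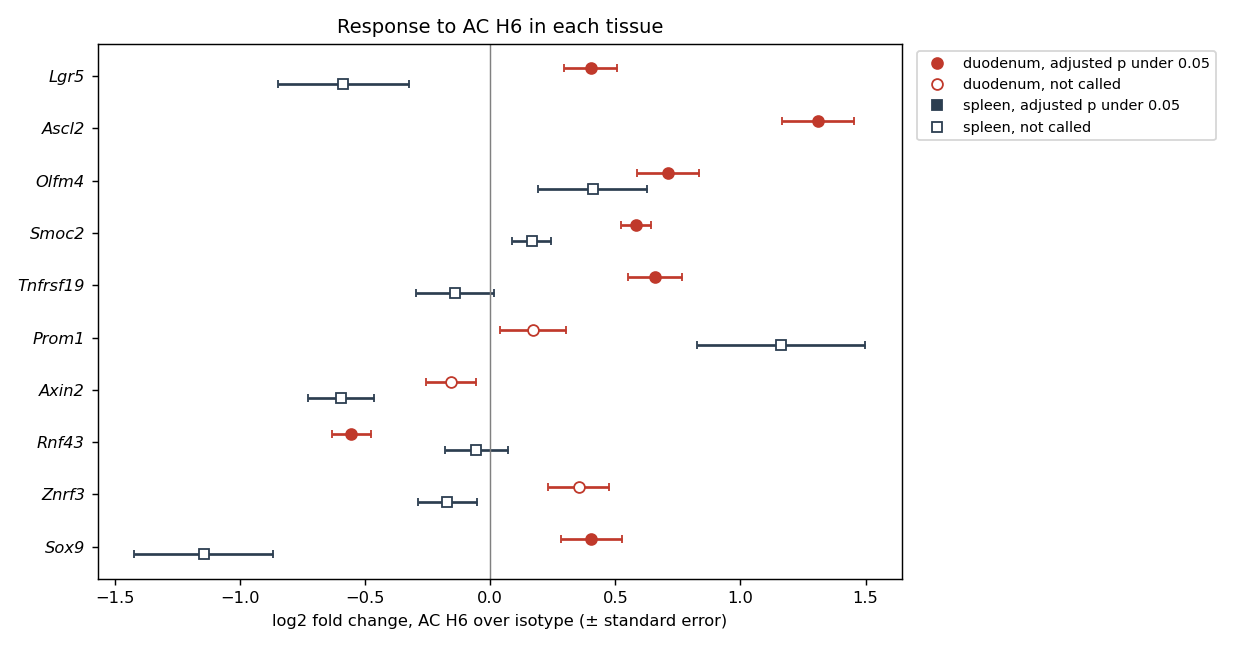
Log2 fold change of AC H6 over isotype for the 10 genes in duodenum (circles) and spleen (squares), with bars of 1 standard error. Filled symbols passed an adjusted p of 0.05, which 7 genes did in duodenum and none in spleen. Ascl2 has no spleen value because it had too few reads to test.

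Among other genes that mark Lgr5 cells, more were called as higher than as lower. Over all genes tested in duodenum, 18.5% were called as higher and 16.1% as lower. Of 12 further genes of the Lgr5 cell signature, all tested in duodenum, 8 were higher, 1 was lower and 3 were not called, and the median log2 fold change was 0.46. Their sums, which weigh the most abundant genes most, overlapped between the groups. They were 5745, 6356 and 4132 CPM in AC H6 libraries and 2731, 4278 and 3878 CPM in isotype libraries. Within each group the libraries stood in the same order as for the Brunner gland markers below, whose part was not tested. Msi1, an RNA-binding protein of progenitor cells, had 8.91, 9.95 and 10.3 CPM in AC H6 libraries, against 3.61, 3.62 and 3.89 CPM in isotype libraries (log2 fold change 1.41 ± 0.11, edgeR adjusted p = 6.77e-05). Rgmb, a membrane-anchored coreceptor for BMP signals, had 68.2, 72.6 and 63.7 CPM in AC H6 libraries, against 29.4, 38.3 and 35.5 CPM in isotype libraries. For both genes the AC H6 libraries lay far above the isotype libraries, as they did for Mex3a, an RNA-binding ubiquitin ligase (1.31 ± 0.16), and Cdk6, a kinase of G1 phase (0.83 ± 0.15). Slc14a1, a urea transporter, was the gene of the list that was lower (-0.67 ± 0.21), and is named after its values were seen. No gene of the list was lower without AC H6 1, AC H6 2, isotype 1 or isotype 2, or with the replicate number as a block. The count of 8 was 5 without isotype 1, isotype 3 or AC H6 2. It was 4 without both AC H6 2 and isotype 1. Calls over all genes fell too, from 5428 to between 3979 and 4753 with each library left out in turn. They numbered 2770 without both AC H6 2 and isotype 1. Genes of reserve and regenerating crypt cells gave 4 higher and 3 not called of 7 tested, and 2 higher without AC H6 2. Ly6a, the surface protein Sca-1 of repairing epithelium and of many blood and vessel cells, had 56.4, 51.6 and 55.6 CPM in AC H6 libraries, against 24.5, 26.6 and 22.1 CPM in isotype libraries. Its groups were far apart, and Anxa1, an annexin that dampens inflammation, also rose (0.57 ± 0.09). Clu, the chaperone clusterin of revival stem cells, had 561, 547 and 343 CPM in AC H6 libraries, against 132, 281 and 260 CPM in isotype libraries. The log2 fold change of Clu was 1.13 ± 0.28, and its call was lost without AC H6 1 or AC H6 2 (highest adjusted p 0.0559).

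Among signals from outside the stem cell (Wnt ligands, R-spondins and the BMP pathway), 9 of 25 genes tested were called, a share of 36.0% that lay near the 34.6% over all genes. Single genes are therefore given as values, and the lists are not set apart from other genes. Of 9 Wnt ligands tested of 19 listed, 3 were higher, 1 was lower and 5 were not called. Wnt5b had 3.42, 3.58 and 2.93 CPM in AC H6 libraries, against 0.813, 1.29 and 1.49 CPM in isotype libraries (1.45 ± 0.21 on the log2 scale), and Wnt6 was higher by 1.00 ± 0.19. Wnt5a, a ligand known for signalling without beta-catenin, was lower (-0.49 ± 0.10). Wnt3, the ligand made by Paneth cells, was not called, with 1.53, 1.95 and 2.66 CPM in AC H6 libraries and 1.42, 1.74 and 2.04 CPM in isotype libraries; it was chosen after its values were seen. Of the 4 R-spondins, 1 was higher and 3 were not called. Rspo3, the R-spondin of stroma near the crypt, had 5.22, 5.14 and 5.05 CPM in AC H6 libraries, against 3.51, 3.06 and 3.10 CPM in isotype libraries. Its groups did not overlap, and the log2 fold change was 0.70 ± 0.12 (edgeR adjusted p = 0.00295). Of 12 genes of the BMP pathway, which opposes the stem cell state, 1 was higher, 3 were lower and 8 were not called. The one that rose was Grem1, a secreted BMP antagonist of stroma below the crypts, with 27.2, 23.9 and 32.1 CPM in AC H6 libraries, against 11.4, 9.73 and 10.1 CPM in isotype libraries. Its log2 fold change was 1.44 ± 0.12 (edgeR adjusted p = 8.91e-05), while the ligands Bmp4 and Bmp5 were lower, by log2 values of -0.45 ± 0.07 and -0.40 ± 0.10. Without isotype 3, and likewise by DESeq2, 5 BMP genes were lower, and without AC H6 3 or isotype 2, 2 Wnt ligands were lower. Wnt11, the other ligand called as higher (0.87 ± 0.27), lost its call without AC H6 1, AC H6 2, isotype 1 or isotype 3. Without both AC H6 2 and isotype 1, 2 Wnt ligands were higher with 0 lower, and 1 BMP gene was higher with 1 lower.

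In 7 lists of receptors, inner parts of the Wnt pathway, other targets and the Notch and EGF pathways, 21 of 67 genes tested were called. This share of 31.3% also lay near the 34.6% over all genes. Of 16 Wnt and R-spondin receptors tested, 3 were higher, 2 were lower and 11 were not called, with a median log2 fold change of 0.09. Fzd5, a Frizzled receptor found in the intestinal epithelium, was lower (-0.55 ± 0.09, edgeR adjusted p = 0.00279). Its values were 79.9, 82.3 and 92.0 CPM in AC H6 libraries, against 121, 115 and 139 CPM in isotype libraries. Fzd10 was higher from a low level, at 1.41, 1.30 and 1.11 CPM in AC H6 libraries against 0.660, 0.243 and 0.628 CPM in isotype libraries (1.38 ± 0.33). Lgr4, an R-spondin receptor found throughout the crypt and named after its values were seen, was lower by a log2 value of -0.18 ± 0.06. Of 13 members of the destruction complex and Dishevelled group, none was higher, 2 were lower and 11 were not called. Tnks, a tankyrase that marks Axin for degradation, was lower by a log2 value of -0.27 ± 0.06. Of 7 secreted Wnt antagonists tested, 2 were higher, 1 was lower and 4 were not called, with Sfrp5 (1.14 ± 0.16) and Sfrp1 (-0.42 ± 0.07), both of the secreted Frizzled-related family, on opposite sides. Of 6 TCF factors and coactivators tested, 2 were higher and 4 were not called, among them Bcl9, which links beta-catenin to Pygopus (0.37 ± 0.07), and Tcf7l1, a TCF factor known as a repressor (0.57 ± 0.13). Of 9 other Wnt target genes, 2 were higher, 2 were lower and 5 were not called, and the median was 0.01. Those that rose were Cd44, a hyaluronan receptor (0.73 ± 0.13), and Ccnd1, cyclin D1 (0.46 ± 0.07), and those that fell were Myc and Sp5 (-0.35 ± 0.10 and -0.29 ± 0.09), transcription factors whose calls were lost without isotype 1, AC H6 1 or AC H6 2, and for Myc also without isotype 2 or isotype 3, for Sp5 without AC H6 3. In spleen, edgeR called 3.98% of all genes tested, 1.92% as lower. There 2 of 8 TCF factors and coactivators tested were lower, Tcf7 and Lef1, and 1 of 8 other Wnt targets, Nkd1. The other lists of this paragraph held no call in spleen. Of the 11 Wnt ligands tested in spleen, 1 was lower, Wnt11. Each of these 4 genes kept its call only when AC H6 2 was the library left out. Of 7 Notch genes tested, 2 were higher and 5 were not called, with Notch2 at 0.43 ± 0.06, and of 9 EGF receptor ligands and receptors 1 was higher and 2 were lower, with Egfr, the receptor, at 0.52 ± 0.09 and its partner Erbb3 at -0.35 ± 0.08. Small counts of this kind moved with single libraries. Among receptors 1 was higher and 1 lower without isotype 2 or without AC H6 2, and 2 were higher and 1 lower without AC H6 1 or without AC H6 3. In the destruction complex 1 was lower when any single library but AC H6 3 was left out, and 3 were lower without AC H6 3. Of the other Wnt targets 2 were higher and 0 lower without isotype 1 or AC H6 2, and 1 was lower without any other single library. Among Notch genes 3 were higher and 1 lower without isotype 2, and 1 was higher without isotype 3. Without AC H6 3, 1 Notch gene was higher and 1 lower. Of the antagonists, 1 was higher without any single library but AC H6 3, and 2 were lower without AC H6 1, AC H6 2, AC H6 3 or isotype 3. Without both AC H6 2 and isotype 1, edgeR called 2 receptors, 1 Notch gene, 1 EGF gene and 2 of the other targets, with 0 TCF factors or coactivators and 0 genes of the destruction complex, so Bcl9, Tcf7l1 and Tnks were not called there.

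**Figure D4:**
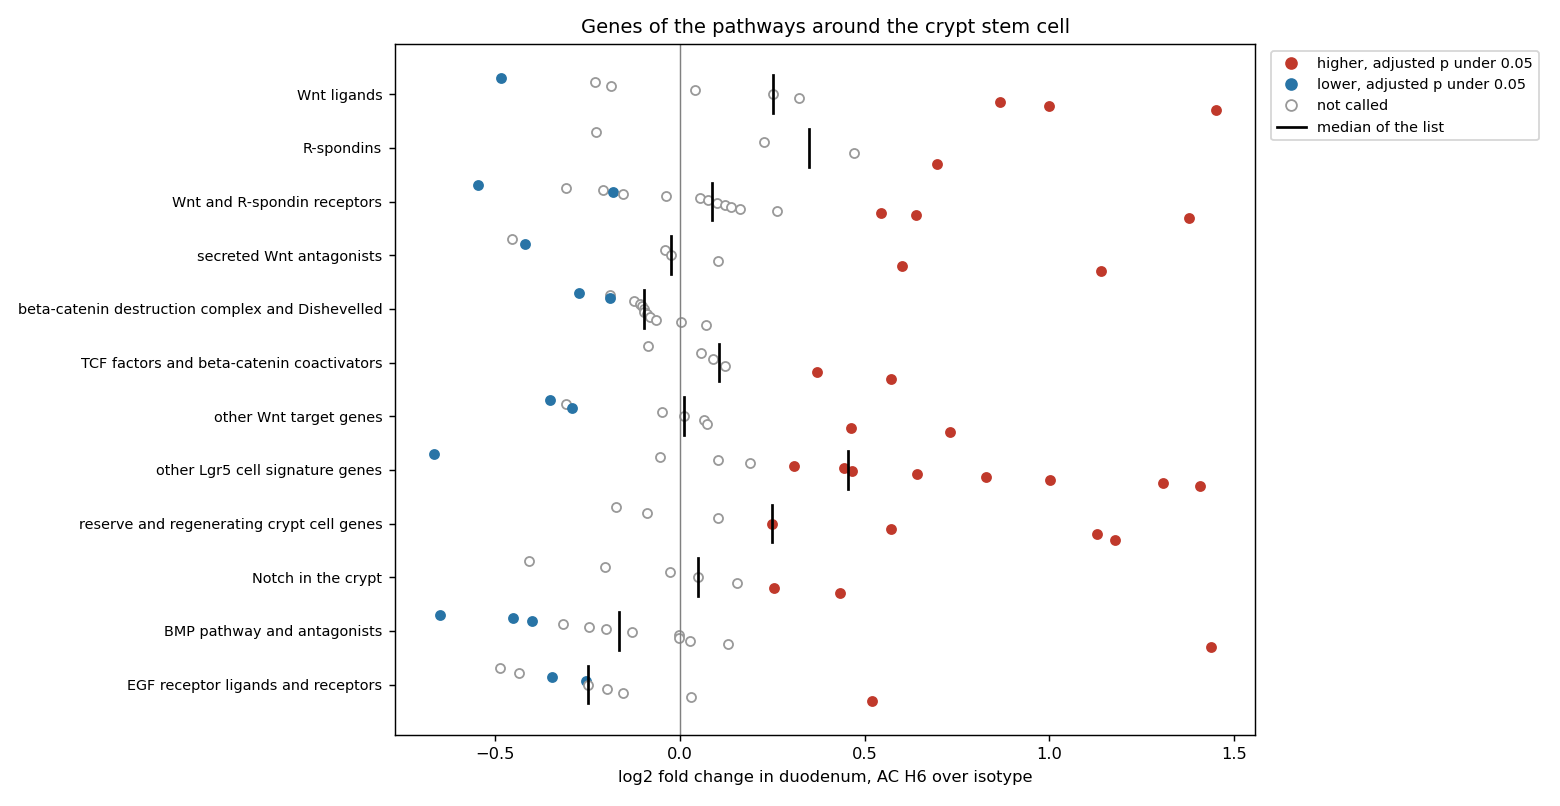
Log2 fold change of AC H6 over isotype in duodenum for genes of 12 lists around the crypt stem cell. Each point is a gene, filled when its adjusted p was under 0.05, and the vertical bars are list medians. The other Lgr5 cell signature genes have the highest median (0.46), and the Wnt pathway lists hold genes on both sides of 0.

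Markers of other cell types were read in duodenum, where 34.6% of all genes tested were called, 18.5% as higher and 16.1% as lower. Lists near that share, such as goblet and tuft cell genes, are not set apart from other genes. Of 13 genes of dividing cells, 10 were higher and 3 were not called in duodenum, and their summed level was 822 to 981 CPM in AC H6 libraries, against 662 to 712 CPM in isotype libraries. Mcm5, a subunit of the DNA helicase of replication, had 63.6, 57.9 and 67.7 CPM in AC H6 libraries, against 42.7, 42.6 and 36.9 CPM in isotype libraries (0.65 ± 0.07). Enterocyte genes, which mark the absorptive cells of the villus, gave 5 lower, 2 higher and 2 not called of 9, with a sum of 32064 to 33952 CPM in AC H6 libraries, against 35642 to 36686 CPM in isotype libraries. Sis, the brush border enzyme sucrase-isomaltase, was lower by -0.66 ± 0.09 and the fatty acid binding protein Fabp1 by -0.61 ± 0.08 on the log2 scale. General epithelial genes gave 3 lower, 1 higher and 4 not called of 8, with the sums given above. Of 6 Paneth cell genes, 1 was higher, 2 were lower and 3 were not called, and their sums overlapped at 3892 to 5320 CPM in AC H6 libraries and 4468 to 5747 CPM in isotype libraries. Goblet cell genes gave 2 lower and 4 not called of 6, enteroendocrine genes 3 higher and 3 not called of 6, and tuft cell genes 1 higher and 3 not called of 4. Fibroblast genes gave 5 higher and 3 not called of 8, with sums of 990 to 1088 CPM in AC H6 libraries, against 738 to 845 CPM in isotype libraries. Immune cell genes gave 3 higher and 3 not called of 6, with sums of 88.3 to 103 CPM in AC H6 libraries, against 65.3 to 69.8 CPM in isotype libraries. Some of these counts rested on single libraries. Enterocyte genes gave 2 lower and 0 higher without AC H6 3, epithelial genes 2 lower and 0 higher without AC H6 1, AC H6 3 or isotype 1, and goblet genes 1 lower without AC H6 1, AC H6 2 or isotype 3. Enterocyte genes gave 1 higher without AC H6 1, AC H6 2, isotype 1 or isotype 3, and no epithelial gene was higher without isotype 2 or isotype 3 either. Paneth cell genes gave 1 lower without AC H6 1, AC H6 2, isotype 2 or isotype 3, and 3 lower without AC H6 3 or isotype 1. Pou2f3, a transcription factor of tuft cells and the gene called in that list, lost its call without any single library but isotype 1 (highest adjusted p 0.0994). None of the markers of these lists that have a row was at 0 in a whole duodenum group. The part of these cell types in the levels of the 10 genes was not tested.

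**Figure D5:**
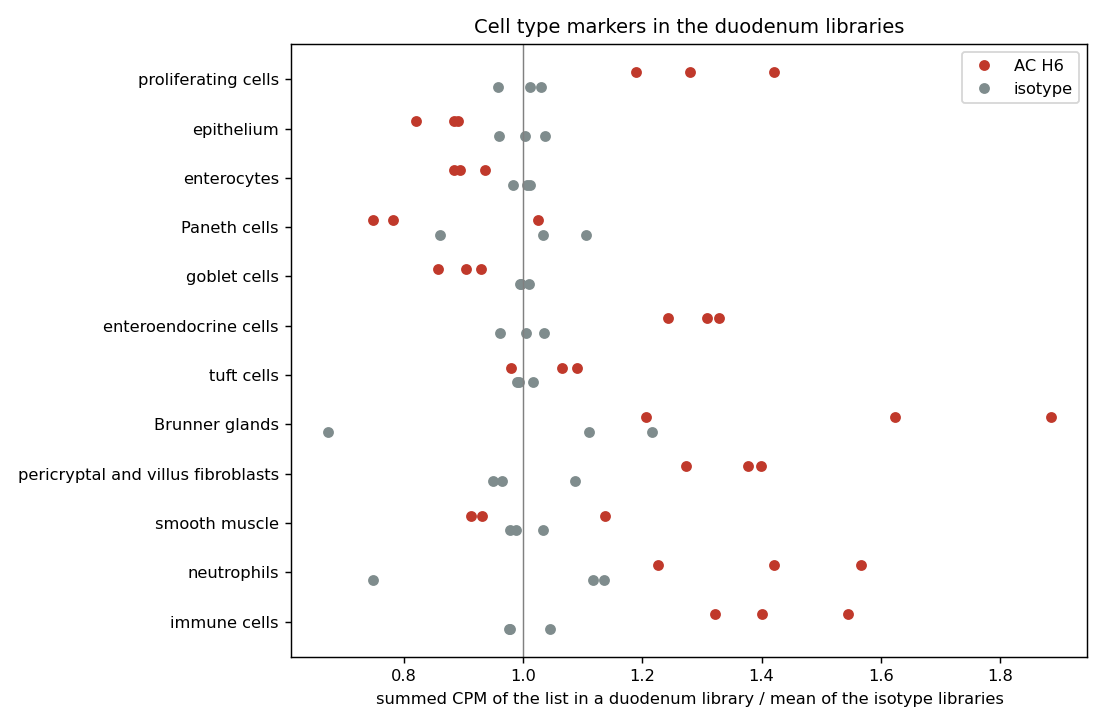
Summed CPM of cell type marker lists in each duodenum library, divided by the mean of the isotype libraries, so that isotype lies around 1. Points are libraries, AC H6 in red and isotype in grey. Sums of dividing, enteroendocrine, fibroblast, neutrophil and immune cell markers lie above isotype in all AC H6 libraries, and those of epithelium, enterocytes and goblet cells lie below.

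Brunner glands, the mucous glands of the upper duodenum, varied widely between libraries of a group. Their 3 markers summed to 20908, 24284 and 15522 CPM in AC H6 libraries, against 8658, 15671 and 14304 CPM in isotype libraries. Isotype 1 was far below the rest, and it was also the lowest duodenum library for 7 of the 10 genes: Ascl2, Olfm4, Smoc2, Tnfrsf19, Prom1, Znrf3 and Sox9. It was the library richest in Rn45s as well. Of these markers Tff2, a mucin-associated trefoil peptide, was called as higher (0.75 ± 0.22) and the call was lost without AC H6 1, AC H6 2 or isotype 3 (highest adjusted p 0.101). The part of Brunner glands and of Rn45s in the levels of the 10 genes was not tested. The 14 acinar genes with a row were high in single libraries of both groups, with a sum of 58.2, 8831 and 110168 CPM in AC H6 libraries and 58.7, 27659 and 367 CPM in isotype libraries. With a score of acinar RNA in the fit, 8 of the 10 genes were called in place of 7, and without both libraries richest in it 7 were.

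The genes most like Lgr5 and Axin2 in their pattern over the 6 duodenum libraries were found by the root mean square difference of log2 CPM, each gene centred on its own mean. Nearest to Lgr5, of 5663 candidates that varied at least as much, were 9030425E11Rik (difference 0.0472), Cdc20 (0.0487), an activator of the anaphase-promoting complex, and 4933432B09Rik (0.0540). Cdc20 averaged 26.9 CPM in AC H6 libraries and 20.6 CPM in isotype libraries, a log2 fold change of 0.41 ± 0.09. Nearest to Axin2, of 7828 candidates, were 4930447N08Rik (0.0417), Dnajc28 (0.0496) and Zcchc4 (0.0547), none of which was called in duodenum. These are likenesses over 6 libraries that also share their depth and their makeup of cells.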

How the data were processed

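RNA was extracted with Trizol and cleaned on columns, and libraries were made from total RNA with a TruSeq kit that does not mark strand, per the labels' protocols. The tissues are labelled duodenum and spleen, although the extraction text mentions brain. Per the submitters' processing notes, the tools were STAR 2.3, bcl2fastq 2.19, edgeR and Trimmomatic, and the build was mm10. Counting tool and annotation were not given in the sources used here. Whole-number read counts per gene are what the authors deposited, and they keep reads with several matches, per the file headers. Where genes overlap on opposite strands, their reads cannot be separated.

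From these counts edgeR 4.0.16 in R 4.3.3 was run with filterByExpr, TMM scaling and the quasi-likelihood F-test. AC H6 and isotype were compared within the 6 libraries of a tissue, the tissue comparison on the 6 isotype libraries and the interaction on all 12. Printed CPM use TMM factors over all 12 libraries, while fold changes come from each comparison's own fit. The standard error is the log2 fold change divided by the square root of F, and CPM per kb uses the union of GENCODE M21 exons. The call threshold was 0.05 on p-values adjusted by Benjamini-Hochberg across every gene in the fit. In simulated duodenum counts of 15667 genes, recovery was 38 of 67 at 1.5-fold, 59 of 67 at 2-fold and 64 of 66 at 4-fold, with 7 false calls of 168. Only 200 genes were changed there, while 5428 were called in the data. The adjustment was therefore stricter in the simulation, and its recovery is not that of the data.

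Members and lists were chosen with earlier results of these data known. The rule for naming genes took all 10 members, from each list up to 4 called genes of smallest p in duodenum (with none called, up to 2 of smallest p) and up to 2 in spleen, and the 3 most similar genes for Lgr5 and for Axin2. Muc2 and Amy2a1 lack a row and were not analysed here, and Clca1 and Amer1 are carried by rows of older symbols. Alternatives were DESeq2-style size factors, no low-count filter, DESeq2 1.42.0, limma-voom (limma 3.58.1), the replicate number as a block, removal of 24 abundant genes, an acinar score as covariate, and each library left out. The removal of both libraries richest in acinar RNA, or of both richest in Rn45s, was chosen after seeing the data. No library was a repeat of another (within groups, chi-square over its degrees of freedom was 24.6 to 243). Replicate numbers come from the sample titles. For duodenum and spleen under isotype, deviations of same-numbered libraries had correlations of 0.289, 0.454 and 0.134. Differently numbered libraries had correlations from -0.346 to 0.099. Between the tissues under AC H6, same-numbered libraries had correlations of 0.162, 0.206 and -0.238, and differently numbered ones ran from -0.362 to 0.300. These values are weak and the labels do not link the tissues, so pairing is possible but not shown. The replicate block changed no member's call between the tissues under isotype.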

Additional observations from a re-analysis of the deposited data

Results flagged for a closer look

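The response to AC H6 differed between duodenum and spleen for 6 of the 10 genes by the interaction term in edgeR (Benjamini-Hochberg adjusted p). The log2 response in duodenum minus that in spleen was 2.24 for Ascl2 (adjusted p = 0.0352), 1.53 for Sox9 (0.00702), 0.97 for Lgr5 (0.0240), 0.78 for Tnfrsf19 (0.0112), 0.40 for Smoc2 (0.0155) and -0.52 for Rnf43 (0.0159). Ascl2 had 6 reads in all AC H6 spleens and 9 in all isotype spleens, so its value rests on the prior count as well as on the reads. Its adjusted p was above 0.05 without duodenum AC H6 1 (0.0543), duodenum isotype 1 (0.0528), duodenum isotype 3 (0.0517), spleen AC H6 1 (0.0819), spleen AC H6 3 (0.0571), spleen isotype 1 (0.0649) or spleen isotype 2 (0.149). With the replicate number as a block it was 0.0506. The call of Lgr5 was lost without spleen AC H6 1 (0.0668) or spleen isotype 2 (0.0838), and that of Rnf43 without spleen isotype 1 (0.0583) or spleen isotype 3 (0.0522). Sox9 was not called by limma-voom (0.0687). Other genes outside the 6 were called without a single library: Znrf3 without duodenum isotype 3 (0.0362), and Prom1 without spleen AC H6 2 (0.0330) or spleen isotype 1 (0.0383).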

How the results depend on the processing

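Of 556 alternative values of single genes, 516 kept their direction and their side of the threshold, 22 lost a call, 13 gained one and 5 changed sign, all 5 from values that were not called. Those were Prom1 in duodenum (-0.020 without AC H6 2 and isotype 1), Rnf43 in spleen (-0.14 to 0.047 when each library was left out, above 0 without AC H6 3) and Znrf3 between tissues (-0.065 to 0.14, below 0 without duodenum isotype 3, spleen isotype 1 or spleen isotype 2). In duodenum the count of called members was 7, with 5 to 7 when each library was left out and 6 to 8 under the other alternatives. The count over all genes there was 2770 without both libraries richest in Rn45s, in place of 5428. In spleen the count over all genes was 608, and DESeq2 gave 1356. It was 14 without isotype 1, 68 without isotype 2, 104 without isotype 3, 76 without AC H6 1, 1132 without AC H6 2 and 30 without AC H6 3, so the background of 3.98% there is uncertain. The count of called members in spleen was 2 by DESeq2 and ran from 0 to 1 when each library was left out. The cause of these shifts was not tested. Self-tested power at 1.5-fold was limited in simulations that changed 200 genes, and Sox9, Lgr5 and Ascl2 have few reads in spleen.

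With the replicate number as a block, 5421 genes were called in duodenum (7 members), 1 in spleen (0 members) and 3230 for the interaction (6 members), where Ascl2 lost its call (adjusted p = 0.0506) and Znrf3 gained one (0.0470). No other member's call changed. Same-numbered libraries of AC H6 and isotype did not deviate together throughout. Their correlations ran from -0.244 to 0.548 in duodenum and from -0.378 to 0.462 in spleen. There too the numbers are not shown to pair libraries.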

Other observations

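Smooth muscle genes were split in duodenum, with 1 higher, 1 lower and 3 not called of 5 by edgeR. Over all genes tested there, 34.6% were called, 18.5% as higher and 16.1% as lower, so this list is not set apart. Des, desmin, had 337, 281 and 271 CPM in AC H6 libraries, against 209, 200.2 and 212 CPM in isotype libraries, a log2 fold change of 0.53 ± 0.09 (SE; adjusted p = 0.00267). Actg2, the gamma actin of smooth muscle, had 87.9, 66.4 and 72.1 CPM in AC H6 libraries, against 115, 117 and 117 CPM in isotype libraries, a log2 fold change of -0.61 ± 0.10 (SE; adjusted p = 0.00217). Neither pair of groups overlapped. The markers of dividing cells summed in spleen to 1524 to 2719 CPM in AC H6 libraries and 755 to 1421 CPM in isotype libraries. EdgeR called 0 of these 13 genes in spleen, 13 were at an unadjusted p under 0.05, DESeq2 called 3 as higher and limma-voom called 0. Of all 15270 genes tested in spleen, edgeR called 3.98%, and 4260 were at an unadjusted p under 0.05.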
